A study of Mus musculus with 7 samples.

Results

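The comparison set the expression of p53-null fibroblasts exposed to trichostatin A (TSA) for 48 h against the same cells exposed for 24 h. It used 2 of the 7 arrays of the series, the p53-/- arrays labelled with 24 and 48 hours of TSA, chosen by those labels. The untreated p53-/- array served as the reference level that says whether a difference between the TSA times was a return towards, or a departure from, the starting signal. All cells of these 3 groups were mouse embryonic fibroblasts (MEF) that lack p53, the control included. The other 4 arrays came from p53-/- Dnmt1-/- cells, here called p53-Dnmt1-null, which also lack the maintenance DNA methyltransferase Dnmt1. They were untreated, exposed to TSA for 24 h or 48 h, or taken 2 weeks after TSA removal, and the first 3 of these are set beside the p53-null values here. The differences on them set no course, though they chose the results flagged near the end. All 7 arrays entered the filter on dim signals and the choice of each gene's probe set. The series asks what DNA methylation contributes to stable gene repression. Each group held 1 array. The labels name no separate cultures, clones or passages, and the sources used here do not give the dose of TSA.

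TSA blocks the zinc-dependent histone deacetylases. These enzymes take acetyl groups off histone tails and other proteins, and blocking them raises histone acetylation and opens chromatin at many genes. In fibroblasts the drug is known to slow the cell cycle and to turn on some genes of other lineages, neuronal genes among them. A gene can answer by 24 h and then come back by 48 h, or it can move only after the first day. The pair of times was used to describe these courses, and no TSA array was earlier than 24 h.

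The arrays were close to each other. Across all probe sets the 24 h and 48 h arrays correlated at r = 0.977, and each correlated at 0.972 and 0.966 with the untreated array. The median signal, in arbitrary intensity units, was 47.9 at 24 h and 48.8 at 48 h. The 18 spike-in control probe sets above the median signal differed between the times by -0.30 to 0.28 on the log2 scale, with a median of 0.01. The 5′ over 3′ signal ratio, a sign of RNA integrity, was 0.946, 0.900 and 0.869 for Actb and 1.17, 1.16 and 1.10 for Gapdh in the untreated, 24 h and 48 h arrays. The 3′ control for 18S ribosomal RNA read 194.0, 337.5 and 228.7 on those arrays. It was highest at 24 h, as the early genes below were, and its part in their values was not tested. Fibroblast markers checked the label: all 16 lay above the median signal on at least 1 of these 3 arrays, and their summed signal was 31680, 35458.1 and 40131.5. Dnmt1, intact in these cells by the label, read 695.6 untreated, 384.4 at 24 h and 308.2 at 48 h. The same probe set still read 206.5, 74.0 and 109.5 on the matching p53-Dnmt1-null arrays.

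Differences were taken on the scale log2(signal + 11.4), where 11.4 is the pooled 25th percentile of all signals, so a fold on this scale understates the change of a dim gene. With 1 array per time there is no test of the pair, and a difference of at least 2-fold was used as a rule of size. Of 9390 features (8298 named genes and 1092 unnamed probe sets), 356 passed it between 24 h and 48 h, which is 3.79%. At 48 h 152 features were higher (1.62%) and 204 were lower (2.17%). The standard deviation of the difference over all features was 0.45, around a median of 0.02. Dim features passed more often. The share past 2-fold was 6.76% among features with a mean signal under 45.6 and 1.21% among those of 1000 or more. Just inside the threshold lay Efnb2 at 1.004 and Mad2l1 at -1.005, and just outside it C1ra at 0.999 and Spc25 at -0.99.

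The untreated array divided these features into courses. Early higher features, 72 in all, were at least 2-fold above untreated at 24 h (as 3.38% of all features were), at least 2-fold lower again at 48 h, and then within 2-fold of untreated. Another 6 features peaked at 24 h but were still at least 2-fold above untreated at 48 h. Late higher features, 78 in all, were at least 2-fold higher at 48 h than at 24 h and at least 2-fold above untreated by then (as 4.75% of all were). Of these, 77 were not yet 2-fold above untreated at 24 h, Mfap4 being more than 2-fold below it, and 1, Dcn, was already past it and grew further. The mirror images held 55 late lower features, 7 of them already low at 24 h, and 19 early lower features that were back within 2-fold of untreated at 48 h. No feature dipped at 24 h and came back only in part by this rule. The other 55 higher and 71 lower features were past 2-fold between the TSA times but within 2-fold of untreated at both. Because the 24 h array enters both conditions of an early course, and the 48 h array both of a late course, an error of that array alone would put a feature in the class. The class sizes are therefore a description.

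**Figure D1:**
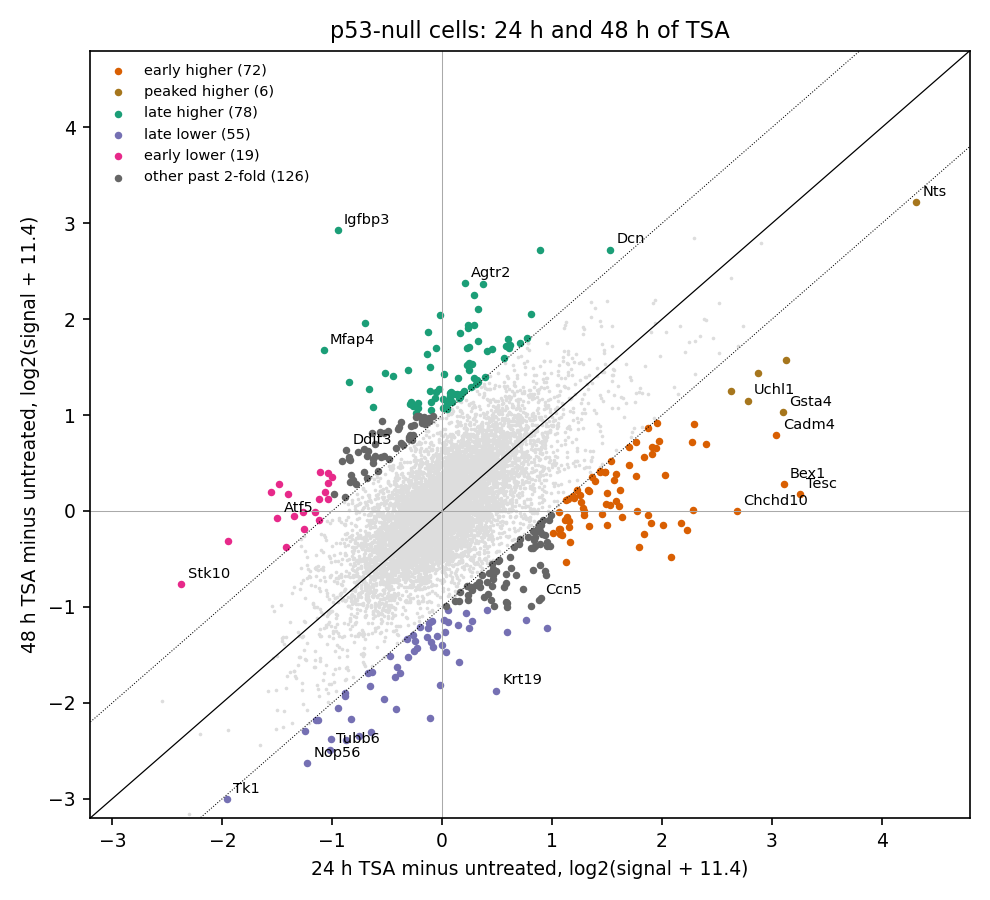
Each point is 1 of 9390 features; the x axis is the difference between 24 h of TSA and untreated and the y axis that between 48 h and untreated, both on the log2(signal + 11.4) scale in p53-null cells. The solid line marks equal values at 24 h and 48 h, the dotted lines mark 2-fold between them, and colours mark the courses with their number of features. Early higher genes such as Chchd10 lie far to the right near y = 0, and late higher genes such as Igfbp3 lie high near or left of x = 0.

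The early higher genes included several that are best known from neurons, such as Syngr1, Crmp1 and Gap43, and others that are not. Tesc, which encodes the calcium-binding protein tescalcin, had signals of 1.0 untreated, 107.1 at 24 h and 2.6 at 48 h, a 48 h minus 24 h difference of -3.08. Bex1, an X-linked gene expressed in brain, read 5.5, 134.4 and 9.1 (-2.83). Chchd10, a protein of the mitochondrial intermembrane space, read 56.3, 424.2 and 56.1 (-2.69). In all of these the 24 h array alone was high and the 48 h array was back at the untreated level.

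Syngr1, a synaptic vesicle protein, read 30.3, 191.6 and 30.5, and the mean over its probe sets differed by -0.88, short of 2-fold. Cadm4, a cell adhesion molecule of the immunoglobulin family, read 26.4, 299.8 and 54.0 (-2.25). Crmp1, a mediator of growth cone guidance, read 25.5, 183.0 and 48.4 (-1.70). Cadm4 and Crmp1 kept a little above the untreated signal at 48 h. Nnat, the imprinted gene neuronatin, read 34.7, 176.4 and 48.6. Wnt11, a Wnt ligand, read 33.7, 116.1 and 29.3. Both stood high on the 24 h array alone.

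Other early higher genes were not neuronal. H2-K1, a heavy chain of MHC class I that presents peptides to T cells, read 463.2, 1439.5 and 479.0 (-1.56), and the mean over its probe sets differed by -0.95. Of 13 measured genes of class I antigen presentation 2 were at least 2-fold lower at 48 h and 0 higher (2.17% and 1.62% of all features), and 10 lay below zero, with a median of -0.19. Hspb1, a small heat shock protein, read 900.7, 2081.7 and 989.8. It was the brightest early gene described here. Col18a1, a basement membrane collagen, read 240.3, 549.2 and 213.2. Egfl7, a secreted protein of endothelium, read 55.8, 148.6 and 63.9, and the mean over its probe sets differed by -0.66. Of the endothelial markers, 9 of 12 endothelial markers were never above the median signal on these arrays.

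The peaked genes kept part of their signal at 48 h. Gsta4, a glutathione S-transferase that acts on products of lipid peroxidation, read 48.6, 503.1 and 110.9 (-2.07). Uchl1, the ubiquitin hydrolase abundant in neurons, read 114.8, 855.1 and 268.9 (-1.63). Ppbp, the precursor of platelet chemokines, read 81.8, 804.6 and 265.7 (-1.56). These genes were still above the untreated signal at 48 h. Nts, the precursor of the peptide neurotensin, read 24.9, 708.7 and 327.1 (-1.09). It was the farthest of them from its untreated signal at both times. Cxcl5, an early higher chemokine gene, is the direct neighbour of Ppbp in the RefSeq gene order and read 77.8, 426.5 and 155.4.

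The promoters of Chchd10 and Nts are shown because the early and peaked genes had fewer CpG dinucleotides at their starts than most measured genes. Each is a stretch of 120 bases read 5′ to 3′ on the gene's strand from RefSeq sequence of assembly GRCm38.p6, with CpG in capitals. Chchd10 lies at chr10:75933010-75933129 on the plus strand and Nts at chr10:102490419-102490538 on the minus strand. Both stretches end at the base before the first listed start, and Nts has no CpG in it.
Chchd10: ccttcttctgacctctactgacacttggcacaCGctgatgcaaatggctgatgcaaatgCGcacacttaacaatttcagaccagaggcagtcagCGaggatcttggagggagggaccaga
Nts: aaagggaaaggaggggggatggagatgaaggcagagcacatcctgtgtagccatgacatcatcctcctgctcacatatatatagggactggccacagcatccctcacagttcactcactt

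CpG density was counted over a window from 250 bases before to 50 after the first listed start. The median of observed over expected CpG was 0.57 in the 44 early higher genes with a promoter in the table, against 0.78 in 6758 named genes tested. The value was under 0.6 for 56.8% of the early higher promoters and 24.3% of all. The late higher genes were alike in this, with a median of 0.58 and 51.1% under 0.6 among 45 promoters. The late lower genes had a median of 0.76 and 31.7% under 0.6 among 41, and the early lower genes 0.87 and 18.8% among 16. The higher classes at either TSA time thus had lower medians than the lower classes. A promoter count is a description and says nothing on methylation, which was not measured on these arrays.

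**Figure D2:**
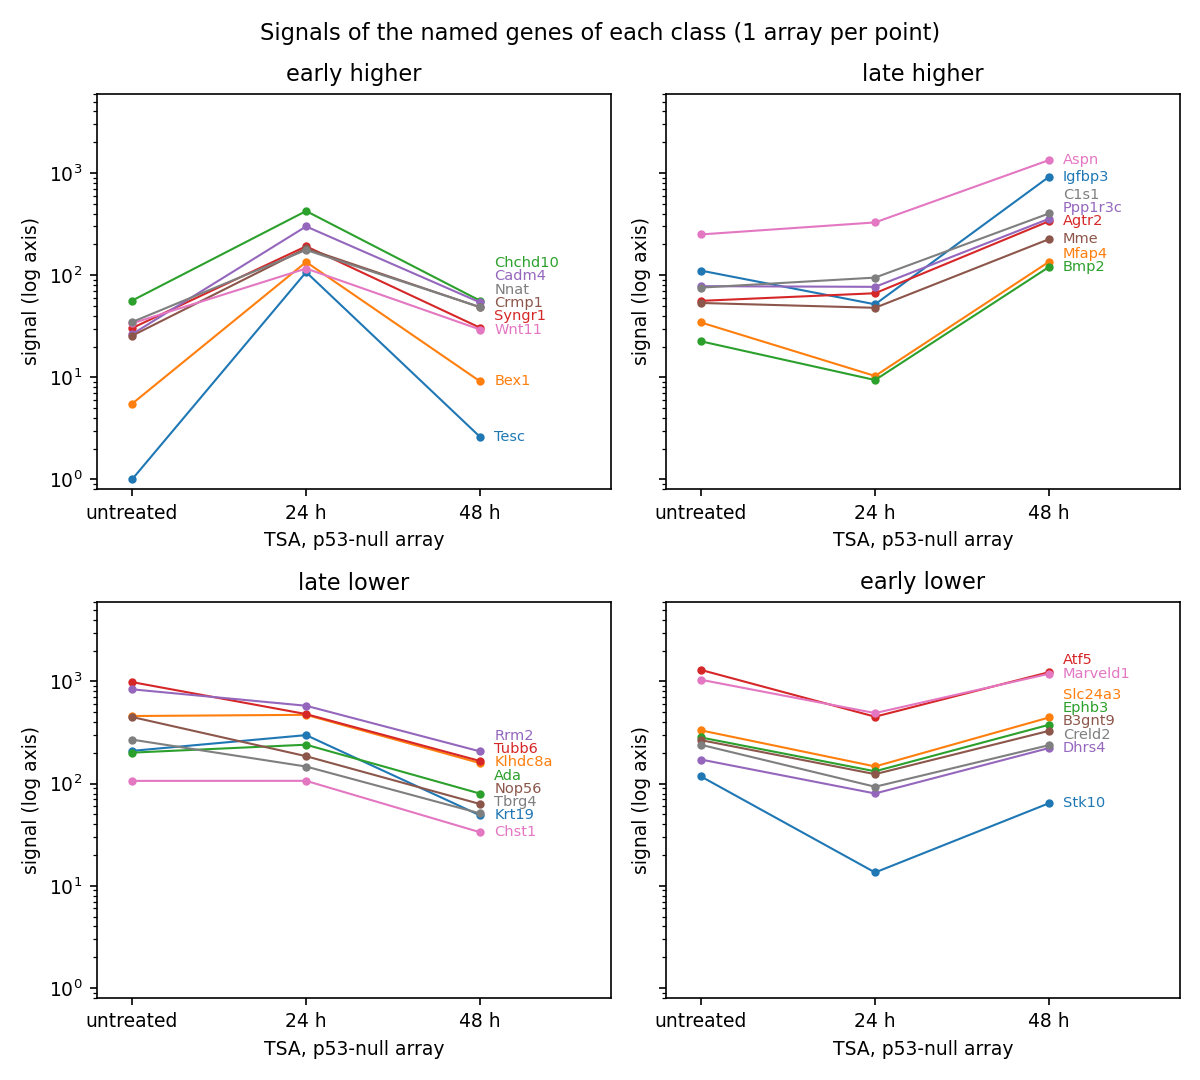
Signals on a log axis (y) in the untreated, 24 h and 48 h p53-null arrays (x) for the 8 named genes with the largest difference in each of 4 courses among those with a signal of at least 100 on a p53-null array; each point is 1 array and labels follow the order at 48 h. The early higher genes form peaks at 24 h, the late higher genes are near or below their untreated signal at 24 h, and Atf5 and Marveld1 mark the top of the early lower dip.

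Among the late higher genes, Igfbp3, a binding protein that holds insulin-like growth factors outside cells, had signals of 110.7 untreated, 51.8 at 24 h and 920.2 at 48 h, a difference of 3.88 or 14.7-fold, the largest of any gene described here. Mfap4, a microfibril-associated protein, read 34.4, 10.3 and 135.5 (2.76). Bmp2, a bone morphogenetic protein, read 22.5, 9.4 and 120.5 (2.66). All of these were lower at 24 h than untreated and high on the 48 h array alone.

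Agtr2, an angiotensin II receptor, read 56.0, 66.5 and 337.8 (2.16). Ppp1r3c, a subunit that brings a phosphatase to glycogen, read 78.0, 76.8 and 356.7 (2.06). Mme, the membrane peptidase neprilysin, read 53.4, 47.9 and 225.3 (2.00). These genes barely differed between untreated and 24 h. C1s1, a complement serine protease, read 75.5, 94.6 and 402.2. Cdkn1c, the imprinted CDK inhibitor p57, read 167.6, 199.7 and 674.8 (1.70). Vcam1, a receptor for leukocyte integrins, read 113.2, 141.0 and 314.1, and the mean over its probe sets differed by 0.55. Each of these was highest at 48 h.

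Small leucine-rich proteoglycans, which bind collagen fibrils and growth factors, stood out for their arrangement. Aspn read 250.3, 328.1 and 1339.0 (1.99). Omd read 57.0, 105.1 and 227.3 (1.03). Ogn read 661.1, 743.0 and 2424.5 (1.69). Aspn, Omd and Ogn follow each other directly on chromosome 13 in the RefSeq gene order, and all were late higher. The measured genes that flank this group differed little: Ippk read 81.8 at 24 h and 83.4 at 48 h, and Iars read 611.4 and 671.1. This group, its flanks and the pairs that follow were singled out after their values were seen. Deptor and Col14a1, also direct neighbours, were both late higher at 1.05 and 1.29. Other direct neighbours past 2-fold went together, as Pkig and Ada did at -1.23 and -1.47, or apart. Apod and Bdh1 differed by 1.14 and -2.30, and Ptger1 and Ddx39a by 1.64 and -1.11. Dcn, a small leucine-rich proteoglycan on another chromosome, read 73.8, 234.2 and 551.8 (1.20) and was the growing gene.

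Wider lists placed these genes. Of 28 measured matricellular proteins and proteoglycans, 6 were at least 2-fold higher at 48 h, 1 was lower (1.62% and 2.17% of all features), and the median was 0.21 against 0.02 over all features. Periostin, Postn, a matricellular protein of fibroblasts, read 1175.8, 1619.1 and 3814.6 (1.23). Ccn5, a CCN matricellular protein, was the lower member, at 513.4, 952.6 and 264.2 (-1.81). The member nearest the list's median was Bgn, at 4169.5, 4294.9 and 5124.8. Of 23 collagens and processing enzymes 1 was past 2-fold, Col14a1 at 49.1, 59.4 and 162.1, and the median was 0.19. The abundant Sparc, nearest that median, read 5573.5, 5535.0 and 6319.4. Of the matrix proteases and inhibitors Fap, a protease of activated fibroblasts, read 25.5, 32.3 and 109.7, and Adamts1 read 505.7, 610.3 and 1259.9. The inhibitor Timp1 went the other way, at 2143.9, 2846.3 and 1277.4.

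Wnt and IGF genes were also higher at 48 h than at 24 h in part. Fzd8, a Wnt receptor and a late higher gene, read 148.7, 142.9 and 508.1 (1.75). The secreted Wnt modulators Sfrp2 and Dkk3 read 1619.8, 894.0 and 2392.4, and 537.6, 508.0 and 1075.7, both within 2-fold of untreated at 48 h. Of 22 measured Wnt pathway genes 3 were at least 2-fold higher at 48 h and 1, Wnt11, was lower (1.62% and 2.17% of all features). Their median was 0.32, with 17 above zero. Igf2, the imprinted growth factor, read 1204.9, 993.5 and 2021.2 (1.02), also within 2-fold of untreated at 48 h, and the mean over its probe sets differed by 0.68. Of 16 measured IGF genes 2 were past 2-fold, both higher (1.62% of all features), with a median of 0.25. The imprinted list held Igf2, Cdkn1c, Dcn, Mest and Nnat, with 4 of 18 higher and 1 lower (1.62% and 2.17% of all features). Its median was 0.45. Without the filter on dim signals the imprinted median was 0.16.

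The promoters of Igfbp3 and Ogn are printed as the contrast within the late higher genes. Igfbp3 (chr11:7213924-7214043, minus strand) has a CpG-rich start and Ogn (chr13:49607895-49608014, plus strand) a poor one. Both stretches again end at the base before the start, with CpG in capitals.
Igfbp3: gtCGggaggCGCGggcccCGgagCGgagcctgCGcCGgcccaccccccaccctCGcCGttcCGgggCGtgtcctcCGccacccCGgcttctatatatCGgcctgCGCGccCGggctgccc
Ogn: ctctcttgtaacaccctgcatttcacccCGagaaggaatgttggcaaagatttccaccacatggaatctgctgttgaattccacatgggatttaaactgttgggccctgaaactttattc

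Among late lower genes, Krt19, a keratin of simple epithelia, had the largest difference at 209.3, 298.5 and 48.8 (-2.36). Of 18 epithelial markers with a probe set, 15 were never above the median signal on these arrays, Epcam and Cdh1 among them. The summed signal of the list, Krt19 included, was 451.5, 607.0 and 285.9. Mesothelial markers, of which Krt19 is also one, summed to 246.0, 383.3 and 105.8, and 6 of 7 were never above the median signal. Most of the fall in both sums from 24 h to 48 h was that of Krt19 itself. Of 10 measured epithelial markers 3 were at least 2-fold lower at 48 h and 0 higher (2.17% and 1.62% of all features). Of these markers 8 lay below zero, with a median of -0.13. Of 7 measured mesothelial markers 1, Krt19, was at least 2-fold lower, 0 were higher and 4 lay below zero. A part of epithelial or mesothelial cells in these differences was not tested. In these bulk RNA samples fewer cells of a type and less RNA per cell cannot be told apart.

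Klhdc8a, a kelch-domain protein, read 459.1, 471.7 and 158.6 (-1.51). Ada, adenosine deaminase, read 201.1, 240.5 and 79.8 (-1.47). Chst1, a sulfotransferase of keratan sulfate, read 106.4, 106.5 and 33.4. In these genes the untreated and 24 h arrays lay together and the 48 h array was low alone. Tubb6, a beta-tubulin, read 986.6, 479.5 and 166.4 (-1.47). Nop56, a core protein of nucleolar RNA-protein particles, read 449.2, 185.6 and 63.1, and its mean over probe sets differed by -0.91. Both were already low at 24 h and lower at 48 h. Ribosome biogenesis as a list did not share the second step: 1 of 28 members, Nop56, was past 2-fold, the median 48 h minus 24 h difference was -0.07, and Bop1, nearest it, read 480.4, 265.1 and 251.1. The list's median against untreated was -0.72 at 24 h and -0.82 at 48 h.

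Genes of DNA synthesis and mitosis, by contrast, were lower again at 48 h. Rrm2, a subunit of ribonucleotide reductase, read 838.1, 578.7 and 206.6 (-1.44). Dut, which clears dUTP, read 336.0, 254.4 and 96.1 (-1.31), or -0.96 as the mean over its probe sets. Tk1, the thymidine kinase of S phase, read 788.6, 194.3 and 88.5 (-1.04). All make or clean the nucleotide pool, and all were lowest at 48 h. Of 32 measured DNA replication genes 3 were at least 2-fold lower at 48 h, 0 were higher (2.17% and 1.62% of all features), and 28 lay below zero. Their median of -0.37 came on top of -0.84 between untreated and 24 h. Mcm7, a helicase subunit nearest that median, read 1460.4, 757.1 and 585.9.

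Mitosis genes were lower by more at the second step. Of 43 measured members 4 were at least 2-fold lower at 48 h, 0 were higher (2.17% and 1.62% of all features), and 41 lay below zero, with a median of -0.63 (0.02 over all features). Those past 2-fold were Ncapd2, a condensin subunit, at 421.7, 267.5 and 123.9, and Cenpa, the centromeric histone, at 507.7, 269.1 and 124.7. The kinesin Kif2c read 270.8, 116.3 and 50.9, but the mean over its probe sets differed by only -0.37. The spindle checkpoint protein Mad2l1 read 271.3, 233.8 and 110.8. Foxm1, the factor that drives many mitotic genes, was nearest the median at 209.9, 125.0 and 76.5. The members above zero were Pttg1 at 0.01 and Smc4 at 0.08. Against untreated, the mitosis median was -0.64 at 24 h and -1.29 at 48 h, so the steps were about equal, while 10 members were at least 2-fold below untreated at 24 h (1.85% of all features) and 31 were at 48 h (3.16% of all). G1 cyclins and CDK inhibitors showed no such shift, with a median of -0.04 over 20 members.

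Promoters of mitosis genes are known for CCAAT boxes, bound by NF-Y, beside a CHR element, TTTGAA. Cdk1 and Ncapd2 are printed to show this arrangement, with CCAAT and TTTGAA on either strand in capitals (ATTGG is CCAAT on the other strand). Cdk1 differed by -0.54 between the times, within 2-fold. Cdk1 lies at chr10:69352913-69353032 and Ncapd2 at chr6:125191657-125191776, both on the minus strand, the latter from 190 to 71 bases before its start and the former up to the base before it.
Cdk1: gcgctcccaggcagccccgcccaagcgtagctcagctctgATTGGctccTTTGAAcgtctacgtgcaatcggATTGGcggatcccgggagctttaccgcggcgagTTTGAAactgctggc
Ncapd2: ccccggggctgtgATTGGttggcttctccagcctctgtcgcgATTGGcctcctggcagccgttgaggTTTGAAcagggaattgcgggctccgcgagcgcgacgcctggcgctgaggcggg

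Of 35 mitosis genes with a promoter in the table, 26 held CCAAT (74.3%), 25 held TTTGAA (71.4%) and 22 held both (62.9%). Among all 6758 named genes tested with a promoter the shares were 38.5%, 11.6% and 4.71%. Of the mitosis genes past 2-fold, Ncapd2 and Cenpa held both, Kif2c held TTTGAA only and Mad2l1 held neither. The 28 DNA replication promoters held TTTCCCGC, the letters of an E2F site, in 17.9% (2.28% of all) and TTTGGCGC in 17.9% (1.12% of all). They held CCAAT in 64.3% and TTTGAA in 14.3%. Of 15 cholesterol synthesis promoters 93.3% held CCAAT and 6.67% held TTTGAA, so CCAAT alone was not particular to the mitosis list. Motifs were searched on both strands in the same window of 300 bases. The late lower genes as a class did not share the mitotic pair: 7.32% of 41 held both motifs, against 4.71% of all.

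Genes of cholesterol synthesis were also mostly lower at 48 h, each by less than 2-fold. Of 19 measured genes 17 lay below zero and the median was -0.41. Nsdhl, a sterol dehydrogenase nearest the median, read 354.6, 322.1 and 240.2, and the list's median between untreated and 24 h was -0.13. Of glycolysis genes 1 of 25 was past 2-fold (3.79% of all features) and 17 were lower, with a median of -0.35. Aldoc, the member nearest it, read 26.5, 58.5 and 43.3.

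The early lower genes dipped at 24 h and were back at 48 h. Stk10, a serine/threonine kinase, read 117.5 untreated, 13.5 at 24 h and 64.4 at 48 h (1.61). Slc24a3, a sodium-calcium exchanger, read 332.3, 147.3 and 444.5 (1.52). Ephb3, an ephrin receptor, read 283.1, 132.1 and 377.3 (1.44). The 24 h array was low alone in each. Marveld1 read 1039.2, 490.6 and 1191.5, and the mean over its probe sets differed by 0.88. Dhrs4, a retinoid-active dehydrogenase, read 172.1, 80.1 and 223.3. B3gnt9, a glycosyltransferase, read 266.6, 123.8 and 328.9. Mest, an imprinted gene, read 748.0, 330.0 and 742.5, and Brd2, a reader of acetylated histones, 509.7, 227.7 and 475.2. The mean over the Brd2 probe sets differed by 0.70. At 48 h Stk10 was still below its untreated signal, and the others named here were near or above theirs.

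Several genes of the amino acid and ER stress response took this course. Atf5, a transcription factor of the integrated stress response, read 1297.9, 452.0 and 1235.0 (1.43). Creld2, which responds to misfolded protein in the ER, read 240.0, 93.2 and 238.4 (1.26). Ddit3, the stress factor CHOP, read 473.0, 253.6 and 741.2 (1.51). Chac1, an enzyme that degrades glutathione, read 411.0, 224.5 and 509.3 (1.14). In Ddit3 and Chac1 the dip at 24 h was less than 2-fold. Of 33 measured genes of the list 5 were at least 2-fold higher at 48 h and 1 lower (1.62% and 2.17% of all features), with a median of 0.11, and the median between untreated and 24 h was -0.47. Some members did not take the course. Phgdh read 2313.3, 1249.3 and 1316.0, low at both times. Psat1, the lower member, read 1640.0, 1179.7 and 567.1. These enzymes of serine synthesis were singled out after their values were seen.

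**Figure D3:**
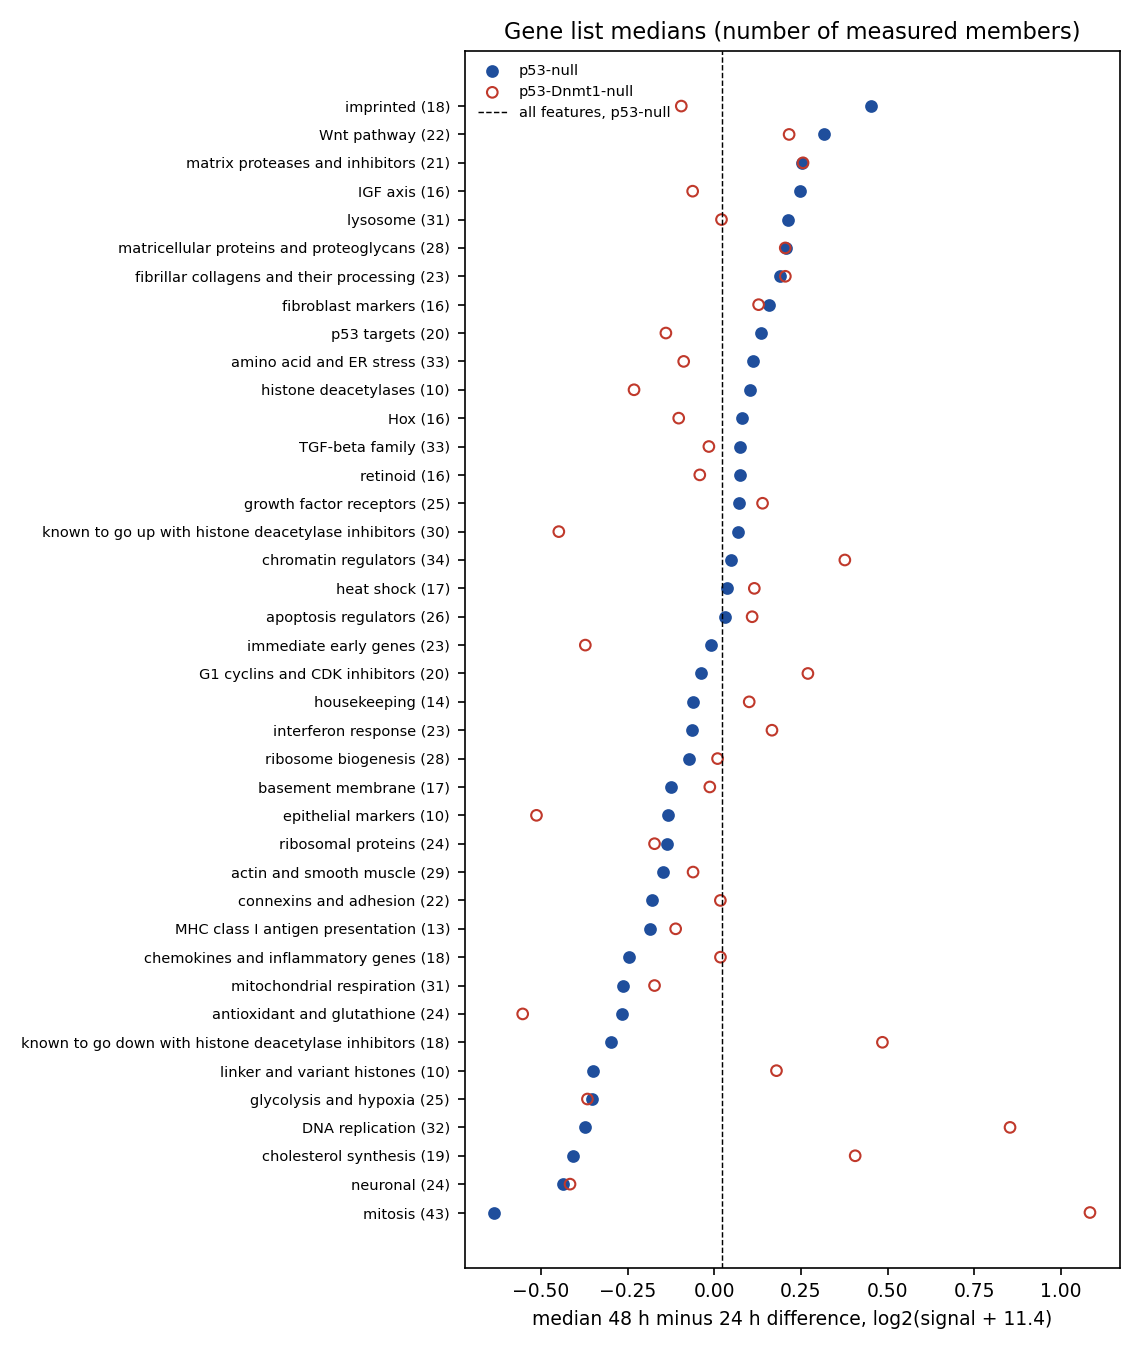
Median 48 h minus 24 h difference on the log2(signal + 11.4) scale (x) for each gene list with at least 10 measured members (y, number of members in brackets), in p53-null cells (filled) and p53-Dnmt1-null cells (open). The dashed line is the median of all features in p53-null cells, and the open circles of mitosis and DNA replication lie at 1.08 and 0.85, on the other side of it from the filled ones.

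Most measured neuronal genes were lower at 48 h than at 24 h. Of 24 measured members 5 were at least 2-fold lower at 48 h, 0 were higher (2.17% and 1.62% of all features) and 19 lay below zero, with a median of -0.44. Gap43, a growth cone protein, read 12.2, 102.4 and 27.5, and Tubb2b, a beta-tubulin of neurons, 114.3, 318.8 and 145.2. Thy1, nearest the median, read 1042.9, 2162.4 and 1627.1. The list's median against untreated was 0.83 at 24 h and 0.23 at 48 h. Among antioxidant and glutathione genes 2 of 24 were past 2-fold, Gsta4 and Mgst3, both lower at 48 h (2.17% of all features). The median was -0.27. Mgst3, a membrane-bound glutathione transferase, read 333.2, 923.5 and 446.4, and its mean over probe sets differed by -0.53.

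The p53-Dnmt1-null arrays at 24 h and 48 h were set beside these values. They entered the filter on dim signals and the choice of each gene's probe set, but not the rule that set the courses. In them 294 features (3.13%) were at least 2-fold higher at 48 h and 235 (2.50%) lower. The 48 h minus 24 h difference had the same sign as in p53-null cells for 60.8% of all features. For the early higher features it was 51 of 72 (70.8%), for the late higher 52 of 78 (66.7%), for the early lower 12 of 19 (63.2%) and for the late lower 20 of 55 (36.4%). Of the 72 early higher features 30 were at least 2-fold above untreated at 24 h in p53-Dnmt1-null cells as well, where 6.02% of all features were. At least 2-fold in the same direction between the TSA times in both genotypes were 10 features higher at 48 h (6.58% of those in p53-null cells and 3.40% of those in p53-Dnmt1-null cells) and 36 lower (17.6% and 15.3%). Past 2-fold in opposite directions were 15 features, 6 higher and 9 lower in p53-null cells.

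Some early genes had counterparts. Of the 72 early higher features 15 were at least 2-fold lower at 48 h than at 24 h in p53-Dnmt1-null cells (2.5% of all features). Their median difference there was -0.23. In p53-Dnmt1-null cells Tesc read 5.5 untreated, 432.0 at 24 h and 178.8 at 48 h. Bex1 read 7.0, 452.5 and 89.0, Crmp1 16.1, 196.2 and 90.7, and Gap43 4.7, 56.4 and 13.4. All peaked at 24 h there too, with more signal left at 48 h in Tesc, Bex1 and Crmp1 than in p53-null cells. H2-K1 was not alike, at 1706.8, 2917.4 and 2700.0, where the signal at 48 h stayed near that at 24 h. The same held for Wnt11 (326.6 at 24 h and 329.6 at 48 h), Col18a1 (429.3 and 425.4) and Hspb1 (6365.0 and 5938.8). The chemokine genes Cxcl5 and Ppbp were dim, at 49.6 and 15.0 at 24 h. The neuronal median of -0.42 in p53-Dnmt1-null cells lay beside -0.44 in p53-null cells, and the antioxidant median of -0.55 beside -0.27.

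Many late higher genes were dim in the other genotype. Of the 78 late higher features 40 (51.3%) were never above the median signal on the 3 p53-Dnmt1-null arrays, against 8.24% of all features. Features passed the filter through any array and these were chosen for a high p53-null signal at 48 h, which favours such a count, so it is a description. Aspn read 3.7, 7.5 and 7.3, Agtr2 1.1, 0.5 and 5.1, Mfap4 1.9, 1.3 and 1.5, and Postn 10.5, 2.4 and 2.2 on them. Igfbp3 was measurable, at 86.9, 149.9 and 125.7, and differed by -0.23 between the times. Dcn was bright, at 1097.9, 621.2 and 1611.5, and was higher at 48 h than at 24 h by 1.36. Cdkn1c read 7.9, 61.1 and 17.0, a peak at 24 h.

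Cell division genes went in opposite directions between the times in the genotypes. The mitosis median of -0.63 in p53-null cells stood against 1.08 without Dnmt1. There 23 of 43 members were at least 2-fold higher at 48 h, 0 lower (3.13% and 2.50% of all features) and 42 above zero. The DNA replication medians were -0.37 and 0.85. Without Dnmt1 11 of 32 were at least 2-fold higher, 0 lower (3.13% and 2.50% of all features) and all 32 above zero. Mad2l1 read 639.7, 117.7 and 438.9 there, a dip at 24 h, and Cenpa read 744.8, 227.7 and 484.4. Between untreated and 24 h the mitosis median was -0.64 with Dnmt1 and -1.47 without it. Cholesterol synthesis genes had medians of -0.41 and 0.41. With 1 array per time in each genotype the difference between genotypes was not tested.

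**Figure D4:**
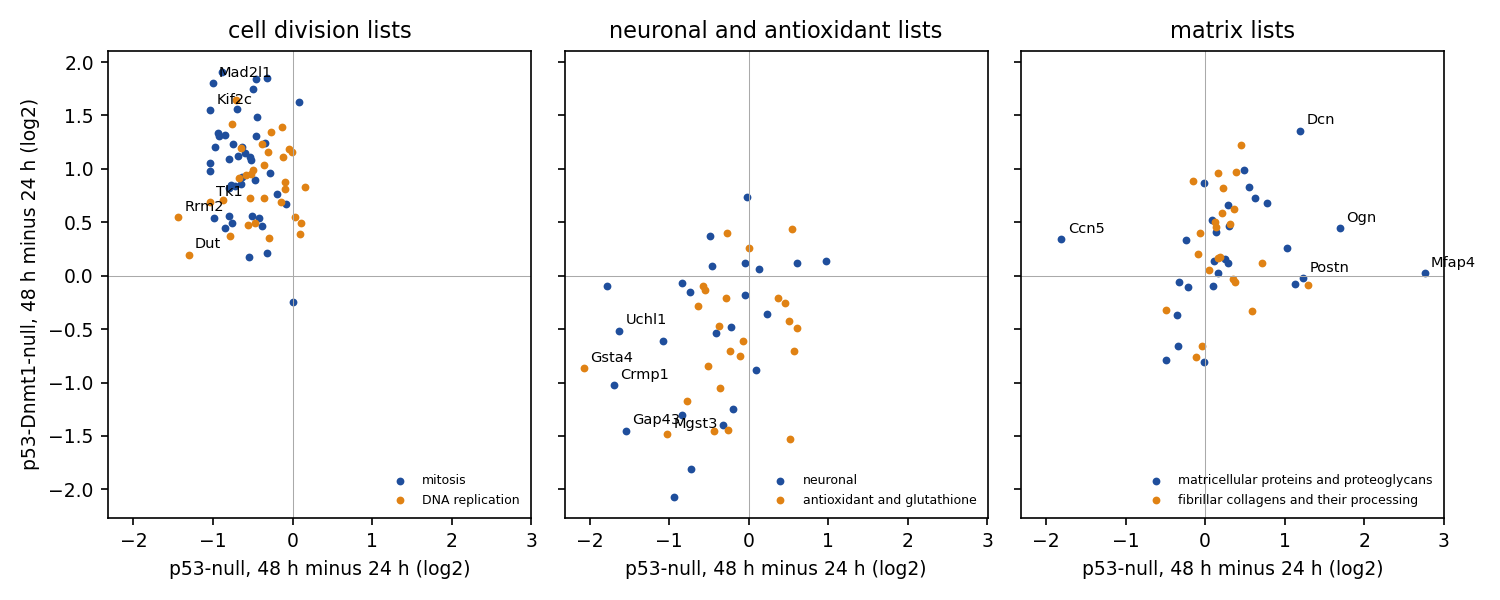
Each point is 1 measured gene of the lists named in the panel; the x axis is its 48 h minus 24 h difference in p53-null cells and the y axis the same in p53-Dnmt1-null cells, both on the log2(signal + 11.4) scale. The cell division genes lie mostly in the upper left of their panel, most neuronal and antioxidant genes in the lower left, and late matrix genes such as Mfap4 lie far to the right near y = 0.

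A difference between the times that both genotypes share can be tested, with the other genotype as the replicate. In limma's additive model of genotype and time over 6 arrays, with 2 residual degrees of freedom, 0 of 9390 features passed a Benjamini-Hochberg adjusted p of 0.05 in either direction (0%). At an unadjusted p under 0.05 there were 1026, where 469.5 are expected with no change, and the smallest limma adjusted p was 0.349. The features with the smallest p included Chchd10 at -2.02 ± 0.37 (SE), Mgst3 at -1.26 ± 0.23, Bex1 at -2.52 ± 0.47 and Atf5 at 1.14 ± 0.21, each with that adjusted p. The excess of small unadjusted p-values was gone without the p53-null array at 48 h, where the 48 h level came from the p53-Dnmt1-null array alone. It remained, at varying size, in the other fits that left out 1 array. Without the p53-null array at 24 h the fit called 82 features higher and 68 lower, but the 24 h level then came from the p53-Dnmt1-null array alone. Without the p53-Dnmt1-null 24 h array it called 3 and 10, with the 24 h level from the p53-null array alone.

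Other probes on the same arrays gave a check on single probe sets. Genes past 2-fold between the times had 92 further probe sets, from 71 genes. Of these 87 (94.6%) had the same sign as the probe set that represents the gene and 35 (38.0%) were also at least 2-fold in that direction, while 0 were 2-fold the other way. For genes within 2-fold 75.0% had the same sign. By course, the early higher genes had 15 of 15 with the same sign and 6 past 2-fold, the late higher genes 27 of 28 and 15, the late lower genes 17 of 20 and 5, and the early lower genes 4 of 4 and 1. These probes bear on probe noise and not on the spread between cultures.

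**Figure D5:**
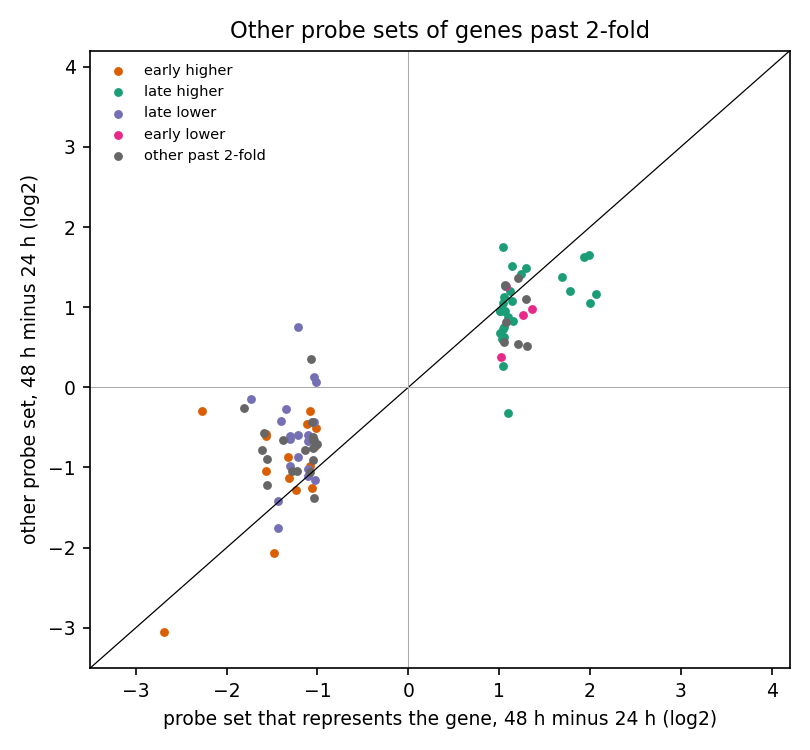
Each point is a further probe set of a gene past 2-fold; the x axis is the 48 h minus 24 h difference of the probe set that represents the gene and the y axis that of the further probe set, both on the log2(signal + 11.4) scale in p53-null cells. Most points (87 of 92) have equal signs on both axes, and many lie nearer to y = 0 than the line of equal values, and the points of opposite sign are late lower, late higher and other features.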

How the data were processed

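Each array holds TriZol-purified total RNA in the standard Affymetrix labelling, per the labels' protocols. MAS5 made the signals, per the submitters' processing notes. The deposited values are linear signal intensities, 1 for each of 22690 probe sets per array, scaled by the authors to a common level. The 2% trimmed means lay between 149.3 and 150.0. Precision is limited by how few arrays there are.

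Probe sets were named through the array's annotation (20393 with 1 symbol, 691 with several, which were left unnamed, and 1606 not listed), updated through Entrez identifiers to RefSeq GRCm38.p6, used for names, gene order and promoter sequences. Of the probe sets 64 controls were left out. A gene is its brightest probe set by mean log2 value, and a feature was kept where any of the 7 arrays read it above 45.6, the median of all signals. Differences are of log2(signal + 11.4). With 1 array per group a difference of at least 2-fold was the rule of size. The shared time difference was tested with limma 3.58.1 (R 4.3.3, intensity trend, prior degrees of freedom 6.36, Benjamini-Hochberg at 0.05), which was tested on simulated data. Its p-values rest on how single arrays scatter, and that scatter may be technical.

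Genes were named by a rule. Among named genes with a signal of at least 100 on a p53-null array these were the 8 with the largest difference in each of the early and late courses, the 4 largest of the peaked course, up to 4 members past 2-fold of each of 49 gene lists, and the member nearest a list's median. Genes named outside it (among them Deptor, Omd, Phgdh, Psat1 and the flanking genes) were chosen after their values were seen. The members, courses and lists were chosen with earlier results of these data known. Alternatives covered the offset, scaling, filter, fold, probe set rule and the arrays in the fit.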

Additional observations from a re-analysis of the deposited data

Results flagged for a closer look

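Some results between 24 h and 48 h had opposite directions in the 2 genotypes, each read from 1 array per time, so that the difference was not tested. The median 48 h minus 24 h difference of the mitosis list was -0.63 with Dnmt1 (p53-null) and 1.08 without it (p53-Dnmt1-null). That of the DNA replication list was -0.37 and 0.85, and that of cholesterol synthesis -0.41 and 0.41. Among the genes named above, Cenpa differed by -1.04 and 1.05, Kif2c by -1.04 and 1.55 and Mad2l1 by -1.005 and 1.80. Cdkn1c, a CDK inhibitor, went the other way, at 1.70 and -1.35. The 18S control was highest at 24 h in both genotypes, at 337.5 and 2549.1 for the 3′ probe set, and its part in these values was not tested.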

How the results depend on the processing

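Of 79 named genes checked, all 79 kept their direction under every alternative for which they gave a value, and 50 stayed past 2-fold under all. Counts moved with the offset and the fold. In the order higher, lower, early higher, late higher, late lower, early lower and peaked, they were 67, 74, 32, 36, 12, 5 and 2 with the offset at the pooled median, and 257, 364, 117, 128, 139, 50 and 19 with an offset of 1. At 1.5-fold they were 680, 710, 216, 373, 290, 134 and 43, and at 3-fold 27, 36, 19, 16, 6, 2 and 0. Keeping only signals of at least 100, added after the data were seen, left 122 lower, 45 early higher, 31 late lower and 11 early lower features. The p53-Dnmt1-null median of the early lower features reversed, from 0.19 to -0.10 with the offset at the pooled median and -0.14 with an offset of 1, and that of the late higher features moved from 0.26 to 0.041 with the former. The mitosis median moved to -0.48 with that offset. Membership changes with the offset, since dim features enter or leave. Quantile normalization, median centring, the filters and the mean over probe sets kept every count of the courses within 1.5 times and every list median's direction. The shared limma test called 0 higher and 1 lower on the 24 h and 48 h arrays alone, and over fits leaving out 1 array 0 to 82 higher and 0 to 68 lower, the most without the p53-null 24 h array. Signals near background limit the dim genes. No paired analysis was possible because each group held 1 array and the labels give no replicate numbers.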

Other observations

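Lysosomal genes leaned to the later time in p53-null cells. Of 31 measured, 24 were higher at 48 h than at 24 h, with a median of 0.21, and 1 was past 2-fold in each direction. Gpnmb, a lysosomal membrane glycoprotein, read 149.5 untreated, 118.8 at 24 h and 259.7 at 48 h. Gla, alpha-galactosidase, read 77.0, 147.6 and 61.6, a peak at 24 h. Asah1, acid ceramidase and the member nearest the median, read 1025.1, 1396.2 and 1621.0. The list's median against untreated was 0.33 at 24 h and 0.65 at 48 h.

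Genes of mitochondrial respiration leaned the other way by small amounts, with 27 of 31 lower at 48 h, 0 past 2-fold and a median of -0.26. Ribosomal protein genes had 21 of 24 lower, 0 past 2-fold and a median of -0.14. Of 29 actin and smooth muscle genes 22 were lower, 0 of them past 2-fold, with a median of -0.15. Genes reported to go up with histone deacetylase inhibitors had a median of 0.07 over 30 members, with 1 past 2-fold, Uchl1, which was lower at 48 h. Those reported to go down had a median of -0.30 over 18 members, with 2 past 2-fold, Rrm2 and Tk1, which also stand in the DNA replication list. The histone deacetylase genes had a median of 0.10 over 10 members, and Hdac11, nearest it, read 81.3, 86.2 and 95. Housekeeping genes had a median of -0.06 over 14, with 1 past 2-fold, the transferrin receptor gene Tfrc, at 236.1, 145.2 and 58.7. Its mean over probe sets differed by -0.76. Bcl2l11, the death-promoting protein Bim, was higher at 48 h, at 255.1, 288.2 and 611.2, and its mean over probe sets differed by 0.84. The immediate early factors Fos and Nr4a1 read 79.5, 66.9 and 179.4, and 111.4, 97.8 and 230.7, in a list of 23 with a median of -0.01. Of all features 3.79% were past 2-fold between the TSA times in p53-null cells. None of these lists was tested against the others.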
